A study of Homo sapiens with 21 samples.

Results

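The nuclear-encoded subunits of the oxidative phosphorylation complexes were followed through irradiation-induced senescence and knockdown of cyclin D1 and its kinases. Members were chosen by gene symbol, with earlier results of these data known. The symbols were the NDUFA, NDUFB, NDUFC, NDUFS and NDUFV series of complex I and SDHA to SDHD of complex II. With them went the UQCR genes of complex III, the lettered COX4 to COX8 subunits of complex IV, and the ATP5F, ATP5M and ATP5P genes of complex V. The table listed 78 such symbols among 16383 genes. Of these, 74 reached a normalized count of 10 in at least 3 libraries and were tested among 11579 genes. They comprised 33 subunits of complex I, 4 of complex II, 8 of complex III, 12 of complex IV, where NDUFA4 was placed, and 17 of complex V. The other 4 were listed near 0: NDUFA6 never exceeded 0.97 normalized counts, COX6A2 1.92 and COX6B2 10.4, and NDUFA3 lay between 0 and 6.23 except for 36.0 in the second library of the dual knockdown. Genes used by every cell, RPS18 among them, were listed near 0 too, so these values are not read as absence. NDUFS7 and the 13 subunits encoded in mitochondrial DNA are not analysed here.

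All cells were wild-type IMR90, a fibroblast line from human lung, and RNA was captured by its polyA tail. There were 7 groups of 3 libraries. Proliferating cells received neither irradiation nor siRNA. The other 6 groups were irradiated, transfected with 5 nM siRNA on days 4 and 7, and harvested on day 10. Their siRNAs were non-targeting siRNA NT3, non-targeting siRNA NT4, CCND1 (cyclin D1), CDK4, CDK6, or CDK4 and CDK6 together, called the dual knockdown below. Irradiation, transfection and time in culture cannot be told apart in the comparison with proliferating cells. The labels do not say that replicates were separate cultures, so p-values measure the spread between these libraries, which may be technical. In RNA from whole cultures, fewer cells of a kind and less RNA per cell cannot be told apart.

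Oxidative phosphorylation moves electrons from NADH, through complex I, and from succinate, through complex II, to coenzyme Q, on to complex III, cytochrome c and complex IV, where oxygen is reduced to water. Complexes I, III and IV pump protons across the inner mitochondrial membrane, and complex V, the ATP synthase, lets them flow back to make ATP. Most subunits are encoded in the nucleus, and their promoters are known for binding NRF1, factors of the ETS family such as GABP, and YY1. Senescent cells, whose cycle is arrested, are known for altered mitochondria.

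Promoter sequence is a feature the members share that their choice did not use. RefSeq promoter windows (GRCh38.p14, 250 bases before to 50 after each start) were held for 60 of the 74 members. Those of the other 14 were not used here. A gene was counted once where any of its windows held the letters on either strand. The NRF1 letters (GCGCA, any base, then GCGC) stood in 15 of the 60 members (25.0%), against 13.0% of 9346 tested genes and 6.98% of 27305 genes with a window. The ETS core CCGGAAG stood in 20 members (33.3%), against 21.5% and 12.2%. The YY1 letters AAGATGGC stood in 9 members (15.0%), against 6.52% and 3.52%. At least 1 of the 3 was present in 36 members (60.0%), against 35.4% of tested genes and 20.0% of all. By complex, NRF1 letters stood in 5 of 28 genes with a window for complex I, 2 of 3 for complex II, 4 of 7 for complex III, 0 of 9 for complex IV and 4 of 13 for complex V. A match describes the letters only, and the NRF1 letters can match both strands at 1 place.

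Of 3 members whose transcripts are followed below, stretches upstream of the start are printed 5′ to 3′ on the gene's strand, with motif letters in capitals. They were chosen to show a repeated motif, different motifs near each other and a stretch with 1 match. SDHA (chr5:218154-218297, + strand, bases -166 to -23) holds 3 NRF1 matches at even spacing, with a further match nearer the start outside the stretch. UQCR11 (chr19:1605474-1605582, - strand, bases -120 to -12) holds the ETS core at -117 to -111 and, on the other strand, at -97 to -91. It also holds NRF1 letters at -29 to -20, again on the other strand. A further NRF1 match on that strand lies at -10 to -1, outside the stretch. UQCRC1 (chr3:48609674-48609703, - strand, bases -57 to -28) holds NRF1 letters at -47 to -38 on the strand opposite the printed one. YY1 letters lie at 23 to 30 on the gene's strand, outside the stretch.
SDHA: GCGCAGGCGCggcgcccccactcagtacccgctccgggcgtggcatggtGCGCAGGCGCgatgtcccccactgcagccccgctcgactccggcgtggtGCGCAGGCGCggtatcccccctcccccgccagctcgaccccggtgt
UQCR11: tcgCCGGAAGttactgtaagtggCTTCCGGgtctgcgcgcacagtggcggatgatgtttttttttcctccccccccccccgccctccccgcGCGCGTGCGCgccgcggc
UQCRC1: gtacggtactGCGCCTGCGCcgcgaccgcc

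Reads in listed genes ranged from 12892442 to 21822152 per library. The targeted transcripts were at 11.8% of the control level for CCND1, 8.67% for CDK4 and 16.4% for CDK6, and at 9.41% for CDK4 and 20.6% for CDK6 in the dual knockdown. The 12 fibroblast markers were all tested, COL1A1 among them, while PTPRC stayed at or below 8.90 normalized counts, PECAM1 at or below 20.6 and EPCAM at or below 47.8. Other markers on the epithelial and on the endothelial and blood lists were higher. KRT18 had 826 to 1995 and KRT8 261.5 to 412 over all libraries. CD68 had 650.2 to 684 in proliferating cells, 866 to 1378 in the irradiated controls and 1476 to 1588 with CDK4 siRNA. The part of these markers in the members' values was not tested. The third NT3 library, which had the fewest reads, stood apart from the rest on these genes. Its member values, each taken as a log2 deviation from the mean of the gene's 7 group means, had a median of 0.50, whereas the other 5 non-targeting libraries lay between -0.15 and 0.02. It was the highest of the 6 non-targeting libraries for 70 of the 74 members, and for 33.8% of all tested genes. Its log2 difference from the mean of the other NT3 libraries, taken gene by gene, had a median of 0.57 over members and -0.005 over all tested genes.

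**Figure D1:**
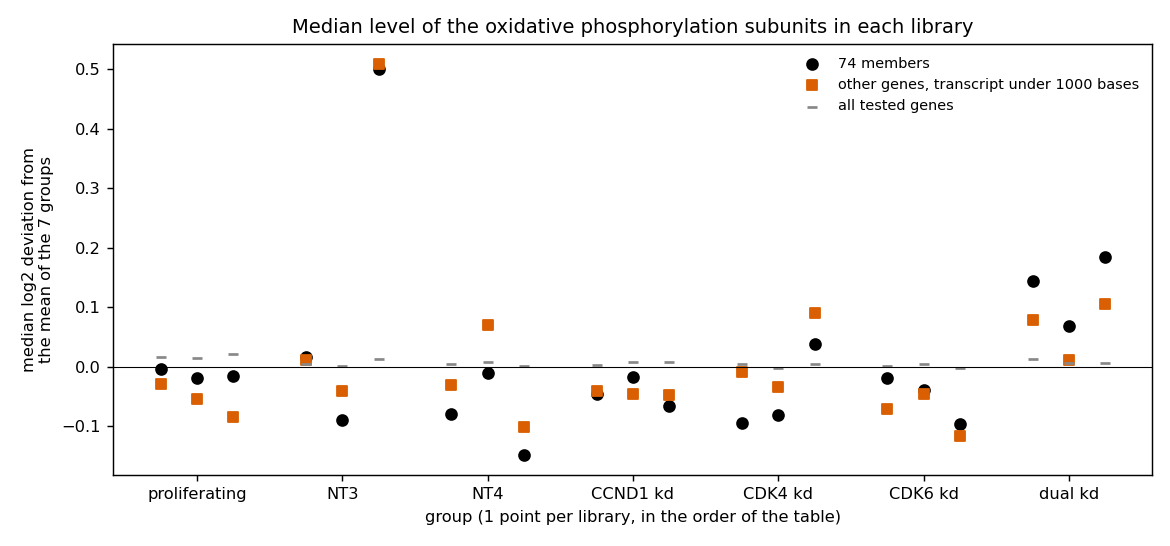
Median log2 deviation of the 74 members in each of the 21 libraries, grouped by treatment (each point is 1 library). The third NT3 library sits at 0.50, and the dual knockdown libraries, at 0.14, 0.07 and 0.18, are the next highest.

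The same library was high for short transcripts in general. Its median deviation was 0.54 for genes whose canonical transcript is under 700 bases and -0.42 for those over 6000 bases. Members are short, with a median canonical length of 750 bases against 3405 for tested genes, and 43 of the 74 are under 1000 bases. Genes under 1000 bases that are no members stood at 0.51 in this library, cytosolic ribosomal protein genes at 0.52 and mitochondrial ribosomal protein genes at 0.43. Complex II stood at 0.12, against 0.50 for complex I, 0.51 for complex III, 0.64 for complex IV and 0.51 for complex V. With the trend over length removed from each library, its member median was 0.11 and the other libraries lay between -0.07 and 0.08. The dual knockdown was also split by transcript length, and every comparison was refitted with this trend removed. Each comparison is given with all libraries and without this one, and the comparison without it was added after it had been seen.

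**Figure D2:**
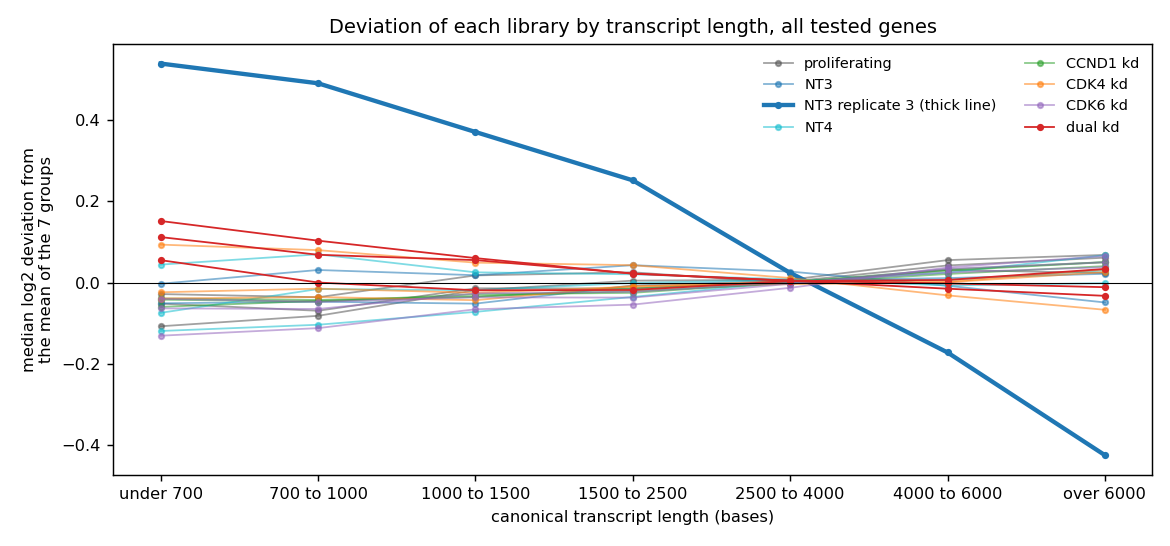
Median log2 deviation of tested genes by class of canonical transcript length, from under 700 to over 6000 bases, with 1 line per library. The third NT3 library runs from 0.54 in the shortest class to -0.42 in the longest, while the other non-targeting libraries stay near 0.

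The spread of members across the 7 groups was read from group means without the third NT3 library. The range between the highest and lowest group mean had a median of 0.37 on the log2 scale for members and 0.71 for all tested genes, and it exceeded 0.5 for 16 of 74 members against 69.6% of tested genes. The widest ranges were those of COX7A1 (2.27), NDUFA1 (0.89), COX6C (0.77), UQCR11 (0.76) and NDUFA7 (0.74). The dual knockdown had the highest mean for 51 of the 74 members, against 14.9% of tested genes, and the lowest for 0. Proliferating cells had the highest mean for 16 members, against 36.4% of tested genes, and the lowest for 20. Within groups the median coefficient of variation of members was between 3.40% and 6.38%, apart from NT3, where it was 24.4% with all 3 libraries and 4.81% without the third.

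**Figure D3:**
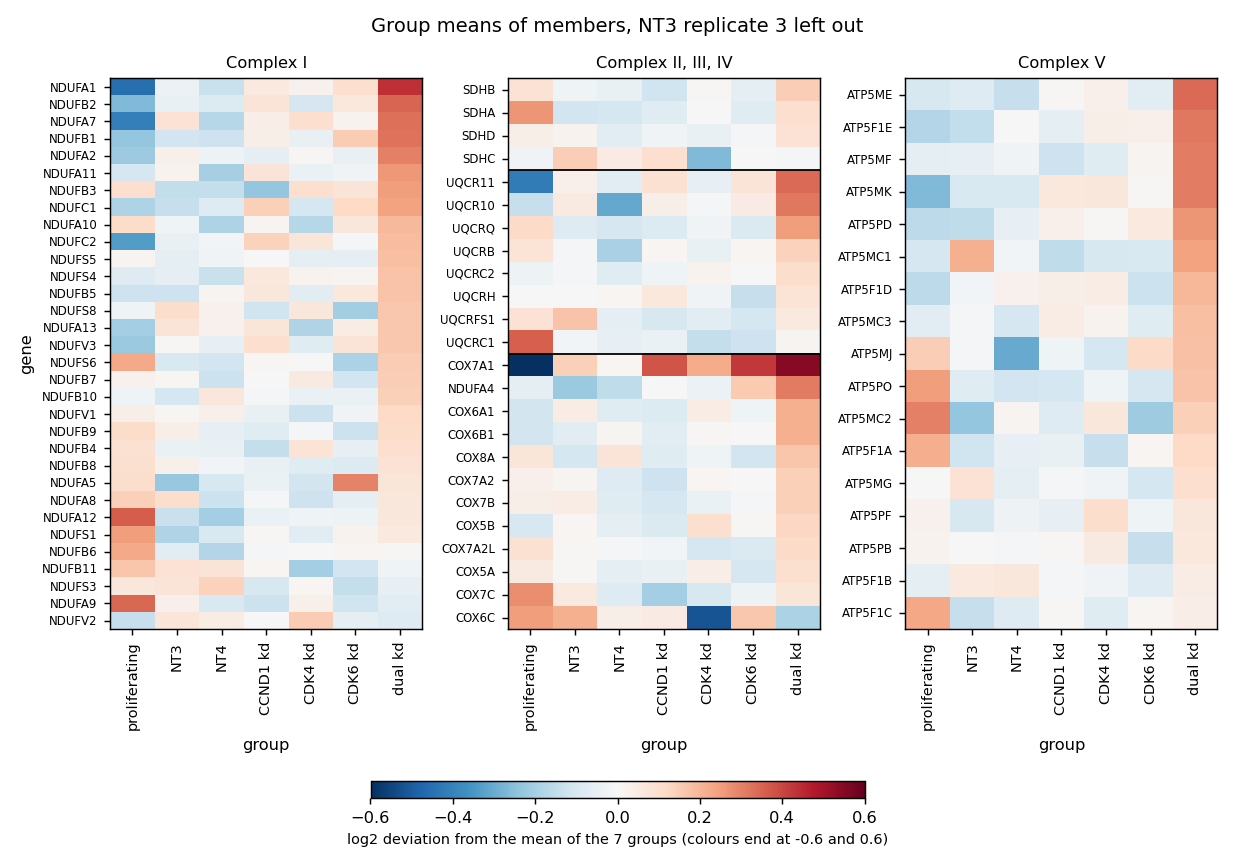
Group means of members as log2 deviation from the gene's mean over groups, with rows ordered by complex and columns by group, the third NT3 library left out (colours are clipped at the ends of the scale). Over all 74 members, 1 of them not drawn, the dual knockdown mean is the highest for 51, and COX7A1 shows the widest range, 2.27.

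The first comparison set the 6 irradiated libraries with non-targeting siRNA against the 3 proliferating ones. Subunits moved in both directions within the same complex: 13 members were higher in the irradiated controls and 11 lower by limma, where 68.6% of all tested genes were called (32.6% higher and 36.1% lower). Called means a Benjamini-Hochberg adjusted p under 0.05, and differences are between group means of log2(normalized count + 1), which understates changes of low genes. The median difference was 0.05 for members and -0.03 for all genes. By complex, 8 members of complex I were higher and 5 lower, 0 and 1 of complex II, 1 and 1 of complex III, 1 and 0 of complex IV, and 3 and 4 of complex V. The irradiated libraries lay above all proliferating ones for 8 members, against 25.2% of tested genes, and below them for 4, against 28.9%. With the third NT3 library left out 13 members were higher and 21 lower, of a background of 73.0% (34.7% higher and 38.3% lower), and the median was -0.03. Values without overlap were then 8 higher (29.6% of tested genes) and 19 lower (33.8%).

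Complex I held both falls and rises. NDUFS1, the core subunit that carries iron-sulfur clusters in the arm facing the matrix, had normalized counts of 1840.3, 1882 and 1964 in proliferating cells. It had 1370.3, 1447 and 1339.8 with NT3 and 1491, 1522 and 1469.6 with NT4. All 6 irradiated libraries lay below the proliferating ones, and the difference was -0.40 (SE 0.05, limma adjusted p = 1.5e-07). NDUFA12, an accessory subunit of the same arm, had 621, 650.2 and 609 in proliferating cells, 468, 419 and 572 with NT3, and 424, 454 and 392 with NT4. Its groups did not overlap either, with a difference of -0.47 (SE 0.08, limma adjusted p = 3.2e-05). NDUFA1, a small membrane-arm subunit needed for assembly, went the other way, from 521, 564 and 540.3 in proliferating cells to 790.0, 659.8 and 1165 with NT3 and 644, 754 and 631 with NT4. Every irradiated library was above every proliferating one, the highest being the third NT3 library, and the difference was 0.48 (SE 0.12, limma adjusted p = 1.7e-03), or 0.37 without that library. NDUFA7, another accessory subunit, had 218, 200.1 and 234 in proliferating cells, 326, 289 and 349.5 with NT3, and 239, 277 and 254 with NT4. It was higher in each irradiated library, by 0.40 (SE 0.10, limma adjusted p = 8.3e-04). With NT4 as the only control, NDUFA1 and NDUFA7 did not pass the threshold, while NDUFS1 and NDUFA12 did.

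Complex II holds the succinate dehydrogenase of the citric acid cycle, and its catalytic subunit fell. SDHA, the flavoprotein that oxidizes succinate, had 2023, 2062 and 1981 in proliferating cells, 1592, 1508 and 1568 with NT3, and 1640.4, 1489 and 1564 with NT4. The groups lay well apart, with a difference of -0.37 (SE 0.05, limma adjusted p = 2.6e-06) that was -0.38 without the third NT3 library. SDHA has near-identical pseudogene copies and its exons overlap another coding gene, so its counts are uncertain. The iron-sulfur subunit SDHB had 914, 882 and 839.7 in proliferating cells against 806, 819 and 1063 with NT3 and 814, 856 and 745 with NT4, and was not called. The membrane anchors SDHC, with 1279, 1215 and 1384, and SDHD, with 1147, 1185 and 1113 in proliferating cells, were not called either.

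In complex III a core subunit fell and a small subunit rose. UQCRC1, a core subunit of the matrix side, had 3074, 3104 and 3168 in proliferating cells, 2446, 2355 and 2953 with NT3, and 2346, 2455 and 2260.2 with NT4. All irradiated libraries were lower, by -0.34 on the log2 scale (SE 0.06, limma adjusted p = 4.7e-05), or by -0.39 without the third NT3 library, which was the nearest to the proliferating cells. UQCR11, a small peripheral subunit, had 1088, 983 and 969 in proliferating cells, 1386, 1381 and 1922 with NT3, and 1297, 1471 and 1126 with NT4. It was higher in each irradiated library, by 0.48 (SE 0.10, limma adjusted p = 1.4e-04), or 0.40 without the third NT3 library. The exons of UQCR11 overlap those of another coding gene, as do those of 17 more tested members. UQCRH, the acidic hinge subunit, had 1516, 1501 and 1467 in proliferating cells and was not called.

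The widest change among the members was in an isoform of complex IV. COX7A1, known as the heart and skeletal muscle form of subunit 7A, had 70.7, 50.0 and 51.4 in proliferating cells. It had 206, 213 and 325 with NT3, 164, 241 and 175 with NT4, 232, 271 and 237 with CCND1 siRNA, 226, 199 and 239 with CDK4 siRNA, 273, 242 and 248 with CDK6 siRNA, and 284, 238 and 313 in the dual knockdown. Every irradiated library was above every proliferating library, and the difference for the non-targeting controls was 1.90 (SE 0.15, limma adjusted p = 2.0e-10), or 1.80 (SE 0.13) without the third NT3 library. Its partner COX7A2, the form found in most tissues, had 1470.0, 1418 and 1575 in proliferating cells, 1561, 1387 and 1991 with NT3, and 1394, 1417 and 1335 with NT4. Those groups overlapped, and the difference was 0.01 (limma adjusted p = 0.90). Per length of the canonical transcript, COX7A1 made up 4.98% of the pair in proliferating cells (SD 1.01, n = 3). Its mean share was 16.9% with NT3, 15.9% with NT4, 20.0% with CCND1 siRNA, 17.0% with CDK4 siRNA, 19.1% with CDK6 siRNA and 18.9% in the dual knockdown. Of 13 striated muscle markers, 4 passed the filter on low values, and MYOD1, MYOG and CKM stayed at or below 2.43, 1.92 and 4.97 normalized counts. Those that passed differed in direction. ACTC1 had 2.13 to 6.11 in proliferating cells, 12.1 to 21.8 with NT3 and 11.7 to 24.5 with NT4. TNNT2 was lower after irradiation, with 27.5 to 34.9, 5.68 to 13.3 and 5.56 to 14.4 in the same order. DES and TTN overlapped between these groups. The summed level of the 13 was 293 to 364 in proliferating cells, 192 to 306 with NT3, 287 to 349 with NT4, 330 to 338 with CCND1 siRNA, 277 to 339 with CDK4 siRNA, 315 to 414 with CDK6 siRNA and 288 to 292 in the dual knockdown. The call of COX7A1 held with each library left out in turn and with either non-targeting siRNA as the only control.

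**Figure D4:**
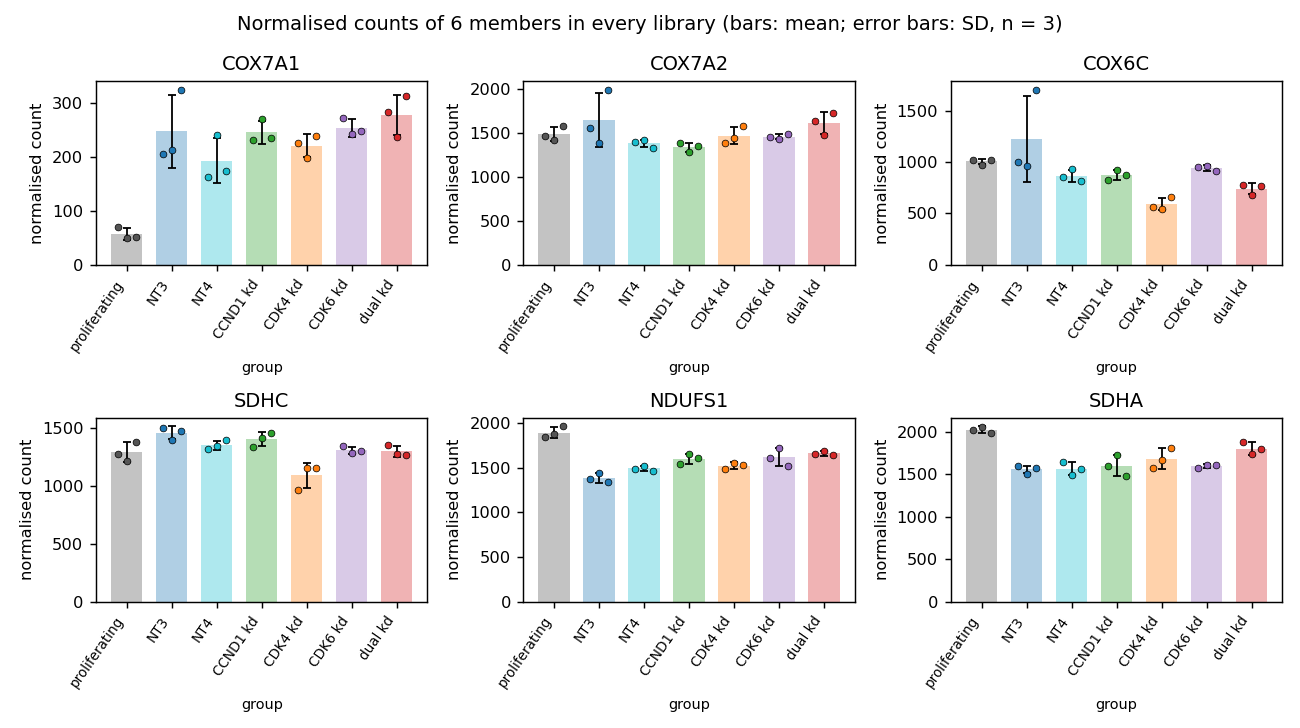
Normalized counts of COX7A1, COX7A2, COX6C, SDHC, NDUFS1 and SDHA in each library (points), with the group mean (bars from 0) and SD (error bars, n = 3) for the 7 groups. COX7A1 is lowest in proliferating cells, COX6C and SDHC are lowest with CDK4 siRNA, and NDUFS1 and SDHA are highest in proliferating cells.

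Among other complex IV subunits the forms tested were not called, and the partner forms COX6A2 and COX6B2 were not tested. COX6A1, the general form of subunit 6A, had 1305, 1187 and 1211 in proliferating cells, COX6B1 had 1250, 1214 and 1259, COX8A had 1611, 1547 and 1591, and COX7A2L, a supercomplex assembly factor, had 1370, 1421 and 1373. None of these 4 passed the limma threshold against the irradiated controls in either fit. UQCRHL, the near copy of UQCRH, is not analysed here.

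Of the 3 genes for the membrane ring of the ATP synthase, 1 fell and another rose. Per length of the canonical transcript, ATP5MC2 held the largest share of the ring transcripts in every group. This order rests on the canonical lengths, 632 bases for ATP5MC2 and 2587 for ATP5MC3. In normalized counts ATP5MC3 was above ATP5MC2 in every group, with means of 2334 against 1832 in proliferating cells and 2769 against 1648 in the dual knockdown. ATP5MC1, ATP5MC2 and ATP5MC3 encode the same mature ring subunit with different import signals. ATP5MC2 had 1747, 1902 and 1849 in proliferating cells, 1282, 1248 and 1759.7 with NT3, and 1465, 1550.3 and 1489.8 with NT4. It fell by 0.33 on the log2 scale (limma adjusted p = 2.1e-03), or by 0.41 without the third NT3 library, the only irradiated control to overlap the proliferating cells. ATP5MC1 had 535, 534 and 531 in proliferating cells, 685, 639.9 and 971 with NT3, and 559.8, 640.4 and 501 with NT4. It rose by 0.29 (limma adjusted p = 1.4e-02), though the third NT4 library was below the proliferating ones, and with NT4 as the only control it did not pass the threshold. Per length, ATP5MC1 supplied 17.9% of the ring transcripts in proliferating cells, 26.1% with NT3 and 21.2% with NT4. ATP5MC2 supplied 62.6%, 50.0% and 57.5%, and ATP5MC3 19.5%, 23.9% and 21.3%. The shares in the knockdown groups were between 19.5% and 22.3% for ATP5MC1 and between 54.0% and 57.9% for ATP5MC2.

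The catalytic head of the ATP synthase moved in opposite directions. ATP5F1B, its beta subunit, had 9603, 9337 and 9976 in proliferating cells, 10609.5, 10302 and 11769 with NT3, and 10536, 10566 and 10457 with NT4. The groups did not overlap, with a difference of 0.15 (limma adjusted p = 4.8e-03). ATP5F1A, its alpha subunit, had 8439, 8712 and 8782 in proliferating cells, 6818, 6845 and 8718 with NT3, and 7159, 7265 and 7109.7 with NT4. The difference was -0.24 (limma adjusted p = 1.0e-03), and -0.30 without the third NT3 library, which alone overlapped the proliferating cells. ATP5MK, a small subunit that holds ATP synthase dimers together, had 1051, 1039 and 989 in proliferating cells, 1136, 1178 and 2015 with NT3, and 1067, 1276 and 1130.1 with NT4. It was higher in each irradiated control, by 0.30 (limma adjusted p = 2.7e-02), a call lost without any 1 of the proliferating libraries or the second NT4 library.

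Both non-targeting siRNAs served as controls, and they were set against each other. Against NT3, 0 members were higher with NT4 and 15 were lower, where limma called 27.8% of tested genes (14.7% higher and 13.1% lower), and the median was -0.23 for members and -0.01 for all genes. Leaving out the third NT3 library gave 2 higher and 4 lower, of a background of 24.7% (12.8% higher and 11.9% lower), with a median of -0.04. UQCR10, a small subunit of complex III, kept its call: it had 935, 834 and 1309 with NT3 and 660.0, 737 and 668 with NT4. The groups did not overlap, and the difference was -0.55 (SE 0.10, limma adjusted p = 4.7e-04), or -0.36 (limma adjusted p = 2.3e-04) without that library. NDUFA8, a complex I subunit of the intermembrane space, differed by -0.37 (limma adjusted p = 3.2e-03), or -0.24 without it. ATP5MJ, a small ATP synthase subunit, differed by -0.54 (limma adjusted p = 3.6e-03), or -0.29 without it. COX6C differed by -0.44 (limma adjusted p = 2.0e-02) with all libraries and by -0.18 (limma adjusted p = 0.10) without the third NT3 library. The calls of UQCRB (-0.43), ATP5MG (-0.33) and NDUFA7 (-0.32), further small subunits of complexes III, V and I, were lost without that library as well.

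Knockdown of CCND1, set against the mean of NT3 and NT4, moved few members. With all libraries 1 was higher and 4 lower, of a background of 31.0% (16.7% higher and 14.4% lower), and the median was -0.06. Without the third NT3 library 6 were higher and 3 lower, of a background of 35.9% (19.6% higher and 16.3% lower), with a median of 0.02. NDUFS1 was the member that rose in the first fit, at 1543, 1658 and 1607 with CCND1 siRNA, above all 6 controls, by 0.16 (SE 0.05, limma adjusted p = 1.6e-02). COX7C, a small complex IV subunit, was lower by -0.31 (limma adjusted p = 3.0e-02), or -0.20 without the third NT3 library. ATP5MC1 had 473, 500.4 and 574, a difference of -0.34 (limma adjusted p = 1.2e-02). UQCRFS1, the Rieske iron-sulfur protein that passes electrons to cytochrome c1, had 1126, 1152 and 1172, against 1461, 1313 and 1746 with NT3 and 1255, 1172 and 1129 with NT4. Its libraries overlapped those of NT4, and the difference was -0.21 (limma adjusted p = 1.4e-02). Each of these 4 calls was lost without at least 1 of the CCND1 libraries and with NT4 as the only control.

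COX6C and SDHC were lower with CDK4 siRNA than in controls. Loss of CDK4 and other effects of its siRNA cannot be told apart here. With all libraries 0 members were higher and 5 lower, of a background of 16.0% (8.46% higher and 7.55% lower), and the median was -0.05. Without the third NT3 library 4 were higher and 6 lower, of a background of 23.3% (12.0% higher and 11.3% lower), with a median of 0.04. COX6C, a single-span membrane subunit of complex IV, had 997, 962 and 1703 with NT3, 858, 929 and 815 with NT4, and 567, 547 and 657 with CDK4 siRNA. It had 1018, 976 and 1024 in proliferating cells, 825, 924 and 871 with CCND1 siRNA, 951, 965 and 915 with CDK6 siRNA, and 775, 676 and 771 in the dual knockdown. The CDK4 libraries lay below all others, those of the dual knockdown next, and neither overlapped the controls. The difference from controls was -0.78 with CDK4 siRNA (SE 0.12, limma adjusted p = 1.0e-04), or -0.65 (SE 0.06) without the third NT3 library. In the dual knockdown it was -0.45 (SE 0.12, limma adjusted p = 4.1e-03), or -0.32 without that library. Against CDK4 siRNA, CDK6 siRNA gave 0.68 more COX6C (SE 0.14, limma adjusted p = 5.1e-04) on the log2 scale. With NT4 as the only control the call held for CDK4 siRNA and was lost for the dual knockdown.

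SDHC, which anchors succinate dehydrogenase in the membrane, was lower with CDK4 siRNA, and in the dual knockdown it differed from controls by -0.11 (limma adjusted p = 0.13). It had 1504, 1399.7 and 1479 with NT3, 1319, 1346 and 1397 with NT4, and 969, 1160.1 and 1152 with CDK4 siRNA. The other groups had 1340.0, 1414 and 1461 with CCND1 siRNA, 1344, 1282 and 1307 with CDK6 siRNA, and 1358, 1279.7 and 1269 in the dual knockdown. The CDK4 libraries were below every other library of the series. The difference from controls was -0.37 (SE 0.06, limma adjusted p = 1.6e-04), or -0.36 without the third NT3 library, and the call held with any 1 library left out. SDHC was higher than with CDK4 siRNA both with CDK6 siRNA, by 0.27 (limma adjusted p = 4.0e-03), and in the dual knockdown, by 0.26 (limma adjusted p = 6.3e-03), the latter lost without the first CDK4 library. NDUFB11, a complex I subunit of the membrane arm, was lower with CDK4 siRNA by -0.42 (limma adjusted p = 2.0e-02), or -0.29 without the third NT3 library, a call lost without the second CDK4 library.

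Knockdown of CDK6 gave 3 members higher and 7 lower, of a background of 41.9% (21.1% higher and 20.8% lower), with a median of -0.09. Without the third NT3 library 13 were higher and 7 lower, of a background of 46.9% (23.7% higher and 23.2% lower), with a median of 0.02. NDUFA5, an accessory subunit of the matrix arm of complex I, had 595, 539.9 and 801 with NT3, 575, 646 and 642 with NT4, and 839, 753 and 862 with CDK6 siRNA. With CDK4 siRNA it had 609.9, 604 and 627. The CDK6 libraries were above every control but the third NT3 library, by 0.38 (SE 0.09, limma adjusted p = 1.6e-03), or 0.46 without that library. They were also above all CDK4 libraries, by 0.41 (limma adjusted p = 3.0e-03). NDUFA4, first assigned to complex I and now counted in complex IV, had 1685, 1617 and 2529 with NT3, 1632, 1825 and 1747 with NT4, and 2124, 2223 and 2109 with CDK6 siRNA. It was higher with CDK6 siRNA by 0.24 (limma adjusted p = 4.0e-02), or 0.35 without the third NT3 library, the only control above the CDK6 libraries. That call was lost when any 1 of 7 other libraries was left out, whereas the call of NDUFA5 held each time. Among the falls, NDUFS3, a core subunit of the matrix arm, was lower by -0.36 (limma adjusted p = 1.9e-02), or -0.25 without the third NT3 library, and lost its call without the first CDK6 library. ATP5F1B was lower too, at 9657, 9367 and 9511, below all 6 controls, by -0.17 (limma adjusted p = 4.0e-03). NDUFB11, lower with CDK4 siRNA, was also called lower with CDK6 siRNA, by -0.33, at 674, 689 and 678, below all controls. Set directly against CDK4 siRNA, CDK6 siRNA gave 4 members higher and 1 lower, of a background of 34.8% (17.5% higher and 17.3% lower), or 8 and 5 of a background of 44.0% (22.3% and 21.7%) without the third NT3 library. The member that was lower in the first fit was ATP5MC2, by -0.28 (limma adjusted p = 3.6e-02), a call lost without any 1 of 4 libraries of these groups. NDUFA10, an accessory subunit of complex I, was higher by 0.24 (limma adjusted p = 3.0e-02), lost without any 1 of 3.

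In the dual knockdown 58 of the 74 members had a higher mean than the controls. With all libraries 14 were higher than the controls and 1, COX6C, was lower, of a background of 44.0% (22.5% higher and 21.5% lower). The median was 0.12 for members and 0.00 for all genes. With the third NT3 library left out 46 were higher and 1 lower, of a background of 51.3% (26.7% higher and 24.6% lower), and the member median was 0.20. The libraries of the dual knockdown lay above all controls for 2 members with all libraries, against 13.8% of tested genes, and for 34 without the third NT3 library, against 18.7%. The share of members called higher was therefore below the background with that library and above it without, and 1 library decides this count. Leaving out the first dual knockdown library instead gave 6 calls. In the 3 dual knockdown libraries, 89.2%, 75.7% and 93.2% of members had a deviation above 0.

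The rise without the third NT3 library was spread over the complexes. Higher members were 21 of 33 in complex I (median 0.22), 2 of 4 in complex II (0.15), 5 of 8 in complex III (0.19), 7 of 12 in complex IV (0.17) and 11 of 17 in complex V (0.23). Within complex I they were 2 of 6 core subunits and 19 of 27 accessory subunits. By length, 27 of 43 members under 1000 bases were higher, with a median of 0.23, and 19 of 31 longer members, with a median of 0.18. Canonical length did not sort members by the third NT3 library. Among the longer ones that library was above the mean of the other NT3 libraries by 0.73 for UQCRB (8459 bases) and 0.77 for COX7A2L (2282 bases). For NDUFS1 (11660 bases) the difference was -0.07. The split was therefore not a test of that library's trend over length. Genes under 1000 bases that are no members had 169 higher and 83 lower of 571, with a median of 0.07. With the trend over length removed, 24 members were called with all libraries and 38 without the third NT3 library, and the dual knockdown libraries had member medians between 0.04 and 0.08. Shares over all tested genes are not given here for these 2 refits, so their counts are not read against a background.

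The summed level of the 12 fibroblast markers, most of it from COL1A1 and COL1A2, was highest in the dual knockdown. It was 720923 to 909620 there, against 466941 to 534544 with NT3, 565883 to 592693 with NT4, 550572 to 629050 over the single knockdowns and 633031 to 649062 in proliferating cells, and COL1A1 was higher by 0.71 on the log2 scale. Other markers on the list differed in how they stood to NT4. COL5A1 had 15680 to 18220 in the dual knockdown against 10319 to 11136 with NT4. DCN had 19958 to 24080 against 14145 to 14944. FBN1, PDGFRB and THY1 also lay above all NT4 libraries. COL3A1, LUM and PDGFRA overlapped NT4, as did FAP and VIM. FAP had 1284 to 1390.5 in the dual knockdown against 1286 to 1388 with NT4, and VIM had 63064 to 69634 against 66019 to 71304. The part of this difference in the members' values was not tested.

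Single members show the pattern. NDUFS1 had 1650.1, 1694 and 1644 in the dual knockdown, above all 6 controls and below all proliferating libraries. Its difference from controls was 0.21 (SE 0.05, limma adjusted p = 1.1e-03). SDHA had 1884, 1733 and 1793, again between controls and proliferating cells with no overlap, and differed by 0.21 (SE 0.05, limma adjusted p = 3.5e-03). These were the only 2 members called higher with all libraries whose dual knockdown values lay above all 6 controls. The third NT3 library was not raised for them: it differed from the mean of the other NT3 libraries by -0.07 for NDUFS1 and 0.02 for SDHA. The median of this difference over members was 0.57. NDUFA1 had 1073, 911 and 1030.1, above every library of the series except the third NT3 library, and differed by 0.41 (limma adjusted p = 1.1e-02), or 0.52 (SE 0.09, limma adjusted p = 1.3e-05) without it. NDUFA4 had 2487, 2246 and 2461, also exceeded only by that library, and differed by 0.40 (SE 0.09, limma adjusted p = 1.6e-03), or 0.50 (SE 0.05). UQCR10 had 1084, 1048 and 1046 and differed by 0.35 (limma adjusted p = 3.7e-03), or 0.44 (limma adjusted p = 2.0e-07). UQCR11 had 1707, 1623 and 1819.9 and differed by 0.28 (limma adjusted p = 2.1e-02), or 0.36. For both, the third NT3 library was the only one of the series above those of the dual knockdown. The calls of NDUFS1, SDHA, NDUFA4 and UQCR10 held with any 1 library left out, those of NDUFA1 and UQCR11 did not without the first dual knockdown library, and UQCR11 also lost its call without the third.

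In complex V the members called only without the third NT3 library included the alpha subunit. ATP5F1A had 8304, 7607 and 8310 in the dual knockdown, above all NT4 libraries and the other NT3 libraries, and differed by 0.20 (SE 0.03, n = 3 against 5) in that fit. ATP5MF, a subunit of the membrane part, had 971, 984 and 1033. Its only higher value in the series was 1204, in the third NT3 library. ATP5ME, which also sits in the membrane part, was called in both fits, by 0.35 (limma adjusted p = 1.3e-02) and by 0.44, but not without the first or the third dual knockdown library.

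The dual knockdown was also set against each single knockdown, which uses no control library. These 3 comparisons share the dual knockdown libraries, and those against CDK4 and CCND1 siRNA were added after the data had been seen. Against CDK6 siRNA 3 members were higher and 0 lower, of a background of 13.0% (6.05% higher and 6.94% lower), with a median of 0.17. Against CDK4 siRNA 13 were higher and 0 lower, of a background of 30.6% (15.8% higher and 14.8% lower), with a median of 0.18. Against CCND1 siRNA 8 were higher and 0 lower, of a background of 20.3% (9.12% higher and 11.2% lower), with a median of 0.17. Values without overlap were frequent: the dual libraries lay above those of CDK6 siRNA for 43 members (18.6% of tested genes), of CDK4 siRNA for 38 (24.8%) and of CCND1 siRNA for 39 (20.1%). The third NT3 library enters these tests only through the shared estimate of spread. Without it the counts were 36 higher and 2 lower against CDK6 siRNA, of a background of 24.6% (12.9% and 11.8%). They were 41 and 1 against CDK4 siRNA, of 41.1% (22.6% and 18.6%), and 37 and 1 against CCND1 siRNA, of 30.5% (14.9% and 15.6%). Without the third dual knockdown library, in contrast, 0 members were called against CDK6 siRNA by limma, with 10 at an unadjusted p under 0.05, and 1 against CCND1 siRNA.

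**Figure D5:**
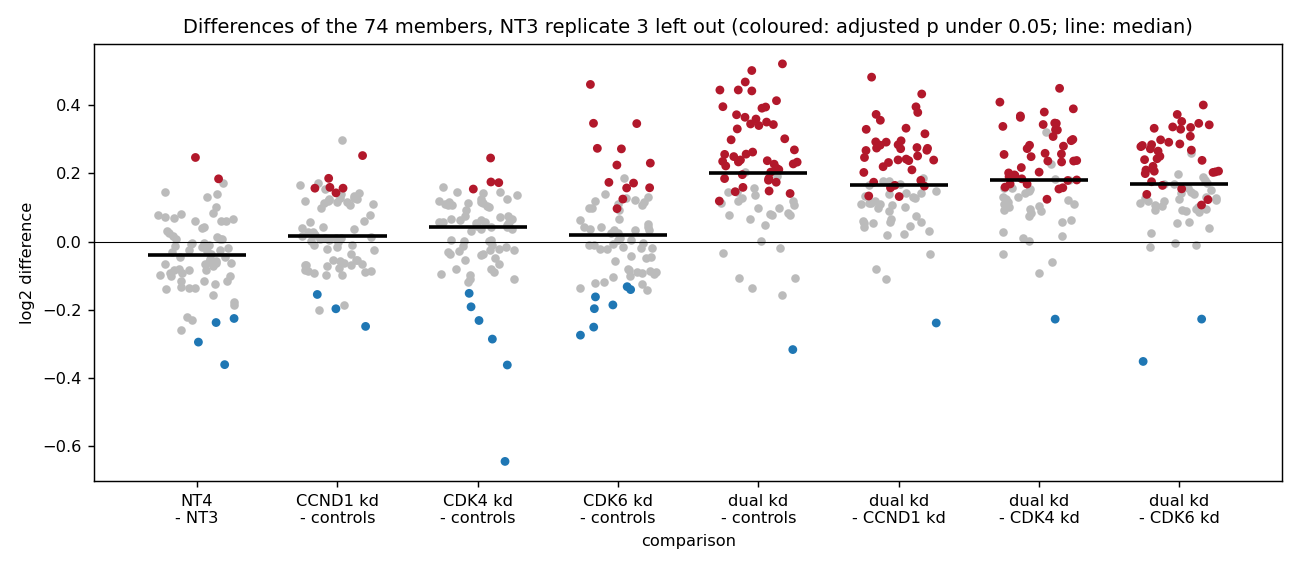
Log2 differences of the 74 members in 8 comparisons, 1 point per member, with the third NT3 library left out of the fit. Points are spread sideways at random. Members with a limma adjusted p under 0.05 are red (higher) or blue (lower), and lines mark medians. The comparisons of the dual knockdown sit above 0 for most members, while those of the single knockdowns are centred near 0.

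Members named by these direct comparisons came from several complexes. NDUFS8, a core iron-sulfur subunit of complex I, had 700.3, 793 and 660.1 with CDK6 siRNA and 855, 879 and 1060.1 in the dual knockdown. Its groups did not overlap, and the difference was 0.37 (limma adjusted p = 2.8e-02). ATP5MC2 had 1349, 1301 and 1203 with CDK6 siRNA and 1732, 1402 and 1811 in the dual knockdown, without overlap, and differed by 0.35 (limma adjusted p = 2.3e-02). ATP5ME had 619.9, 616.8 and 554 with CDK6 siRNA and 811, 704 and 854 in the dual knockdown, and differed by 0.40 (limma adjusted p = 3.8e-02). Against CDK4 siRNA, NDUFB2 was higher by 0.45 (limma adjusted p = 9.6e-03). Against CCND1 siRNA, NDUFB3 was higher by 0.48 (limma adjusted p = 9.2e-03) and ATP5MF by 0.43 (limma adjusted p = 1.2e-02). NDUFB2 and NDUFB3 are accessory subunits of the membrane arm of complex I. SDHB was higher than with CCND1 siRNA by 0.27 (SE 0.09, limma adjusted p = 3.8e-02). The calls of NDUFS8, ATP5MC2, ATP5ME and SDHB were each lost without at least 3 of the 6 libraries compared, left out 1 at a time.

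The last comparison asked whether the dual knockdown differed from the sum of both single knockdowns on the log2 scale. The departure was called for 4 members, all upward, of a background of 6.35% (2.63% higher and 3.71% lower), with a median of 0.26 for members. Without the third NT3 library it was called for 17, 16 upward and 1 downward, of a background of 12.4% (6.23% and 6.17%), with a median of 0.18. SDHC departed by 0.36 (SE 0.09, limma adjusted p = 1.9e-02): CDK4 siRNA lowered it and the dual knockdown did not pass the threshold. ATP5MC1 departed by 0.62 (SE 0.15, limma adjusted p = 1.7e-02). It had 515, 559 and 532 with CDK4 siRNA, 552, 553 and 508 with CDK6 siRNA, and 675, 667 and 688 in the dual knockdown, above both single knockdowns without overlap. UQCRFS1 departed by 0.34 (SE 0.10, limma adjusted p = 3.6e-02). It had 1212, 1149 and 1175 with CDK4 siRNA, 1174, 1123 and 1137 with CDK6 siRNA, and 1279, 1287 and 1282 in the dual knockdown, again without overlap. ATP5F1B departed by 0.23 (SE 0.07, limma adjusted p = 4.1e-02), with 9729, 9862 and 10139 with CDK4 siRNA and 10639.9, 10021 and 10426 in the dual knockdown. Without the third NT3 library the departures of these 4 were 0.35 for SDHC, 0.52 for ATP5MC1, 0.28 for UQCRFS1 and 0.20 for ATP5F1B, and each was still called. Leaving out the first CDK4 library ended all 4 calls by limma, with 16 members at an unadjusted p under 0.05, and so did NT4 as the only control, with 8.

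Other genes of the pathway were read from lists made apart from the symbol rule. Of 7 tested subunits, carriers and partners the rule leaves out, 4 were higher and 2 lower in irradiated controls than in proliferating cells. Among them ATP5IF1, which inhibits the ATP synthase when it runs in reverse, was higher by 0.58 (limma adjusted p = 3.2e-05). NDUFAB1, the mitochondrial acyl carrier protein, was higher by 0.46 (limma adjusted p = 5.6e-05), and CYC1, the cytochrome c1 of complex III, was lower by -0.25 (limma adjusted p = 4.6e-03). NDUFA4L2, a relative of NDUFA4, was lower by -0.79 (limma adjusted p = 2.9e-03). COX4I1, the general form of subunit 4, differed by 0.20 (limma adjusted p = 6.8e-02), and its relative COX4I2 was listed at or below 1.04. Of 15 regulators of mitochondrial genes 2 were higher and 6 lower, and of 41 assembly factors 8 and 15. Both totals are below the share over all tested genes, of which 32.6% were higher and 36.1% lower. NRF1 was lower by -0.77 (limma adjusted p = 2.6e-07) and TFAM, which packages mitochondrial DNA, by -0.55 (limma adjusted p = 8.9e-07). ESRRA, a nuclear receptor of this program, was higher by 0.58 (limma adjusted p = 3.8e-05), and GABPA differed by -0.19 (limma adjusted p = 5.3e-02). PPARGC1A, a coactivator of the program, was higher by 1.99 (limma adjusted p = 1.6e-04) at low values, between 2.13 and 27.9 over all libraries.

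The lists were also read in the dual knockdown, where 22.5% of all tested genes were higher and 21.5% lower than in controls, and 26.7% and 24.6% without the third NT3 library. Against controls, 4 of 41 assembly factors of the complexes were higher and 6 lower with all libraries, and 7 and 7 without the third NT3 library. Of 15 regulators 0 were higher and 7 lower, and 1 and 7 without it, including TFAM at -0.20 (limma adjusted p = 3.2e-02) and PPARGC1A at -1.29 (limma adjusted p = 1.3e-02). PPARGC1A had 11.04, 2.18 and 9.01 in the dual knockdown, 9.34, 9.93 and 15.8 with NT3, and 25.6, 20.4 and 27.9 with NT4. The dual knockdown thus overlapped NT3, and only NT4 lay apart from it. Of 18 genes of the citric acid cycle and pyruvate dehydrogenase 8 were higher and 1 lower, with a median of 0.13, and 11 and 1 without it. OGDH, a subunit of the oxoglutarate dehydrogenase, was higher by 0.34. Mitochondrial ribosomal proteins had 3 higher and 13 lower of 76, and 11 and 9 without it. Cytosolic ribosomal proteins had 1 higher and 2 lower of 81, and 33 and 3 without it.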

How the data were processed

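The labels' protocols give siRNA dose and days, TRIzol extraction and polyA capture. Per the submitters' processing notes, reads were handled with Trimmomatic 0.38.1, HISAT2 2.2.1, featureCounts 2.0.3 and DESeq2 2.11.40.8 on hg38 (GRCh38). The authors deposited a signal table of normalized counts, reads divided by 1 size factor per library. Whole reads came back for 100% of values (tolerance 0.1). Strandedness of counting is not given in the sources used here, and 5 members overlap a gene on the opposite strand. Column names give the group, and replicates are numbered in column order.

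Values were tested as log2(value + 1) with limma 3.58.1 in R 4.3.3, 1 mean per group over all 21 libraries, two-sided, with Benjamini-Hochberg adjustment over 11579 genes with values of at least 10 in 3 libraries. Controls are the mean of NT3 and NT4. edgeR 4.0.16 and DESeq2 1.42.0 were run on the recovered reads. Scripts were tested on simulated data. Members and lists were chosen with earlier results of these data known. Named members are those with isoforms or paralogs, SDHA to SDHD, and per complex and comparison at most 2 rises and 2 falls, the widest called without overlap. Others (ATP5F1A, ATP5MF, NDUFA4, NDUFA5, NDUFB2, NDUFB3 and those repeated across comparisons) were chosen after their values were seen. Values of 1 member are not reported here by name, though it is counted.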

Additional observations from a re-analysis of the deposited data

Results flagged for a closer look

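Over the 6 non-targeting libraries the third NT3 library lay far from the others in its median log2 deviation, by Dixon's gap test at the 95% level, for the members together (0.50) and for complex I (0.50), complex III (0.51), complex IV (0.64) and complex V (0.51). Chance marks about 1 in 20 groups of libraries, and these 5 sets share their library and genes.

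The dual knockdown departed from the added differences of both single knockdowns, by the limma test of the departure itself, for ATP5MC1 (0.62), SDHC (0.36), UQCRFS1 (0.34) and ATP5F1B (0.23). The same test called 6.35% of all tested genes. Each of these calls was lost without the first CDK4 library, and with NT4 as the only control.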

How the results depend on the processing

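No paired analysis was possible because the table's columns carry no replicate number to tie them to the labels. Column names carry a running library number, and rounds were inferred from its order, each with 1 library of every irradiated group. No label or header names a round. The 45 pairs of libraries from the same inferred round had deviations that correlated between -0.11 and 0.10. No named member reversed under any alternative run, while the small medians of irradiated against proliferating, CCND1, CDK4, CDK6 and CDK6 against CDK4 changed sign under some. Counts of members called (all libraries, given in the report) moved as follows, and the cause was not tested. Shares over all tested genes are not given for most of these runs, so the counts are not read against a background. Leaving out 1 library at a time gave 18 to 34 for irradiated controls against proliferating cells (median -0.03 to 0.11), 5 to 46 for NT4 against NT3 (-0.34 to -0.04), 1 to 17 for CCND1 (-0.11 to 0.02), 2 to 11 for CDK4 (-0.13 to 0.04), 5 to 24 for CDK6 (-0.13 to 0.02), 6 to 47 for the dual knockdown (0.06 to 0.20) and 3 to 13 for CDK6 against CDK4 (-0.04 to 0.03). It gave 0 to 38 for dual against CDK6 (0.15 to 0.20), 3 to 42 against CDK4 (0.15 to 0.22), 1 to 38 against CCND1 (0.14 to 0.21) and 0 to 17 for the departure (0.18 to 0.33). Fitting only the groups compared gave 15 for irradiated against proliferating, 0 for NT4 against NT3 (limma, 9 at an unadjusted p under 0.05), 0 for CCND1 (6), 2 for CDK4, 2 for CDK6, 7 for dual, 12 for CDK6 against CDK4, 35, 37 and 37 for dual against CDK6, CDK4 and CCND1, and 2 for the departure. With NT3 alone as control the counts were 15 for CCND1, 13 for CDK4, 22 for CDK6, 9 for dual and 21 for the departure, and with NT4 alone 1, 2, 6, 24 and 0. No filter gave 3 for CDK4 and 4 for dual against CCND1. Quantile normalization gave 1, 7 and 3 for dual against CDK6, CDK4 and CCND1, and 2 for the departure. DESeq2 gave 8 for CDK4 and 7 for the departure, where it called 2089 and 996 of the 11579 tested genes. The inferred round as a term gave 3 for CDK4, 1 for dual against CDK6, 5 for dual against CCND1 and 2 for the departure. Removing the length trend, added after the data were seen, gave 10 for CCND1, 9 for CDK4, 22 for CDK6, 24 for dual, 14 for CDK6 against CDK4 (median 0.057), 5 for dual against CDK6 (0.079), and medians of 0.11 for dual against CDK4, 0.092 against CCND1 and 0.11 for the departure. Removing it without the third NT3 library gave 38 for irradiated against proliferating, 16 for CCND1, 11 for CDK4, 25 for CDK6, 38 for dual, 21 for CDK6 against CDK4 (0.055), 13, 30 and 22 for dual against CDK6 (0.079), CDK4 (0.11) and CCND1 (0.093), and 8 for the departure (0.085). Other counts stayed within 1.5 times. The table's low values limit NDUFA3, NDUFA6, COX6A2 and COX6B2, which were not tested.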
